A study of Mus musculus with 9 samples.

Results

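The Fc receptors of mouse splenic monocytes were followed as 6 genes, Fcgr1, Fcgr2b, Fcgr3, Fcgr4, Fcer1g and Fcgrt, chosen by gene symbol from the 46072 genes in both deposited tables. Each symbol had 1 row in each table, so all 6 members were measured. Gene expression was profiled by RNA sequencing of monocytes enriched from the spleen by magnetic negative selection, without stimulation in culture, in 9 libraries of female C57BL/6 mice aged 8 to 10 weeks, in 3 groups of 3 mice. The Con group received water by gavage. The Van group received vancomycin, which stays largely in the gut when given by mouth, as 2 gavages of 1 mg daily, 2 mg in all, over 6 days. The VanLip group had the same vancomycin gavage and then L654, a lipid of Bacteroidota bacteria that is a ligand of the receptor TLR2, by the retro-orbital route on days 7, 9 and 11. The labels and the study's account of the sequenced mice name no vehicle injection for Con or Van. If none was given, L654 cannot be told apart from the injections themselves. All 3 groups were rested for 6 to 8 days after the gavage, per the labels. The enriched cells were not sorted, so other splenic cells could be present, and fewer cells of a type and less RNA per cell cannot be told apart in such bulk samples.

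Fc receptors bind the constant part of antibodies and so connect antibody-coated particles to phagocytes. The activating receptors Fcgr1 (CD64, the high-affinity IgG receptor), Fcgr3 and Fcgr4 (a mouse receptor for IgG2 subclasses) each pair with the FcR gamma chain, encoded by Fcer1g, whose tail holds an immunoreceptor tyrosine-based activation motif (ITAM) that recruits the kinase Syk after Src-family kinases phosphorylate it. Fcgr2b is the inhibitory receptor; its tail holds an inhibitory motif (ITIM) that recruits the phosphatase SHIP1, encoded by Inpp5d. Fcgrt encodes the heavy chain of FcRn, an intracellular receptor that pairs with beta-2 microglobulin and protects IgG from breakdown. Fcgr4 is well known as a gene of nonclassical monocytes, and Fcgr1 as one induced by interferon gamma.

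The 2 signalling motifs that set activating apart from inhibitory receptors are shown as coding bases, read from the GENCODE M21 transcripts on GRCm38, with the tyrosine codons in capitals. The ITAM was found as a tyrosine, any pair of residues, leucine or isoleucine, a spacer of 6 to 8 residues, and the same again. It had 1 match among the members, at residues 65 to 79 of the 86 residues of the Fcer1g product, on the minus strand and split between exons within chr1:171229889-171230072. The ITIM of Fcgr2b lay at residues 317 to 322 of 340, in 1 exon on the minus strand at chr1:170961071-170961088. The shorter ITIM pattern also matched by its letters in other members, so a match is a description only.
Fcer1g ITAM: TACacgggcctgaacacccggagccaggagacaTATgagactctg
Fcgr2b ITIM: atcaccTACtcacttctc

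On GRCm38, 4 members lay in 1 stretch of chromosome 1 of 275749 bases, from the start of Fcgr2b to the end of Fcer1g. Fcgr2b (chr1:170958617-170976547, minus strand) was followed after 42372 bases by Fcgr4 (chr1:171018920-171029761, plus strand), after a further 21412 bases by Fcgr3 (chr1:171051174-171064935, minus strand), and after 164636 bases by Fcer1g (chr1:171229572-171234365, minus strand). Fcgr1 lay on the minus strand of chromosome 3 (chr3:96282909-96293969) and Fcgrt on the minus strand of chromosome 7 (chr7:45092990-45103851). All 6 are annotated as protein-coding genes. An annotated antisense gene, Gm38204, overlaps Fcgr2b and had a mean normalized count of 0.828. The small RNA genes Gm26110 inside Fcgr4 and Mir6546 inside Fcgr3 had means of 5.08 and 0.0966, and whether the counting used strand was not stated.

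Fcgr2b and Fcgr3 have near-identical extracellular parts. The longest run of coding bases they share is shown because a read wholly inside it cannot be assigned by its own bases to 1 of the pair. It was 129 bases long, spliced across an intron within chr1:170966674-170968081 of Fcgr2b and chr1:171054167-171057792 of Fcgr3. Stretches of 100 bases shared exactly with Fcgr3 made up 4.78% of those in the Fcgr2b coding sequence, and stretches shared with Fcgr2b made up 6.27% of those in Fcgr3; at 50 bases the shares were 17.1% and 22.1%. Values of these 2 genes are uncertain for that reason. A read of 150 bases, the length inferred below for VanLip, is longer than this run, and 1 of 100 bases, inferred for Con and Van, is not. The uncertainty may therefore differ between the groups, and its size was not tested. No other pair of members shared a run of more than 14 coding bases.
Shared by Fcgr2b and Fcgr3: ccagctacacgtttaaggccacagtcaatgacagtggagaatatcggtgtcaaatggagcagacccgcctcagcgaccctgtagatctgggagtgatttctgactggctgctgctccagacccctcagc

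The promoters of Fcgr1, Fcgr4 and Fcgr2b, the members that differed most between the groups, are given from RefSeq (GRCm38.p6) as 250 bases before to 50 after a start site, with motif matches in capitals. Both strands were searched for an ETS element of the PU.1 type (GAGGAA), AP-1 (TGANTCA), CRE (TGACGTCA), an NF-kB form (GGNNTTTCC) and an interferon-response form, ISRE (GAAANNGAA). In the Fcgr1 promoter (chr3:96293920-96294219, minus strand) an ETS match began 55 bases before the start site. In the Fcgr4 promoter (chr1:171018676-171018975, plus strand) an ISRE match began 73 bases and an ETS match 22 bases before it. The Fcgr2b window (chr1:170976022-170976321, minus strand) held none of these letters, nor did that of Fcer1g. The 2 overlapping windows of Fcgr3 each held 1 ETS and 1 NF-kB match, and that of Fcgrt 1 NF-kB match. No matches in these windows overlapped one another. Of 32851 promoter windows of the same length, 28.3% held the ETS element, 7.81% AP-1, 1.79% CRE, 5.82% the NF-kB form and 8.56% the ISRE form.
Fcgr1 promoter: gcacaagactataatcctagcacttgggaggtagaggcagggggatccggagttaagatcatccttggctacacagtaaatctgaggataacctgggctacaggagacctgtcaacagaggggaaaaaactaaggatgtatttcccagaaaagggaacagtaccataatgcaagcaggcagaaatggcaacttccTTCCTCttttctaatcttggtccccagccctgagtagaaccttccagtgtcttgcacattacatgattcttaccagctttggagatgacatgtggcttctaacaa
Fcgr4 promoter: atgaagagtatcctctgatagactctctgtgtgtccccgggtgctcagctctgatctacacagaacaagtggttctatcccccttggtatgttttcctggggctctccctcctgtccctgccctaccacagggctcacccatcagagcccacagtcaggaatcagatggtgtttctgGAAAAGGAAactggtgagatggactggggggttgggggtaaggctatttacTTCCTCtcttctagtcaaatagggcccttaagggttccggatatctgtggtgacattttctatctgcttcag
Fcgr2b promoter: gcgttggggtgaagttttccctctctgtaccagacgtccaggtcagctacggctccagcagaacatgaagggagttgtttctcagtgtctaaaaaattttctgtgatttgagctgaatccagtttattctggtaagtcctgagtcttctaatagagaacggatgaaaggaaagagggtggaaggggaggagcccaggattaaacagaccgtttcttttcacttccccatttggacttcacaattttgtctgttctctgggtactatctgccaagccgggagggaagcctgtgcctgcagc

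Total expected counts were 43070361 to 59339748 in Con, 50210853 to 61383806 in Van and 170503470 to 184720704 in VanLip. The most frequent low count was 1.33 for all Con and Van libraries but 2.00 for the VanLip libraries, the values of reads of 100 and 150 bases under the read length of 75 that tximport assumes. Read length was inferred here from these counts; the study's methods name only the shorter for the libraries, so the inferred length of the VanLip reads differs from the stated one. Depth and this low count went with the VanLip group, and any difference of VanLip from the other groups cannot be told apart from them. The monocyte markers Csf1r, Itgam, Lyz2, Cd14, Cx3cr1 and Adgre1 were all detected, with a summed level of 8840 to 9450 FPKM in Con, 7680 to 9370 in Van and 8850 to 10400 in VanLip, against 10.5 to 13.9, 8.85 to 11.0 and 10.7 to 13.1 FPKM for 7 B cell markers. FPKM scales the fragments of a gene to its transcript length and to the depth of the library, so it can be set side by side between genes.

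The 6 members spanned a wide range of levels per transcript length, in nearly the same order in each group. Fcer1g was the highest, with means (± SD, n = 3) of 774.5 ± 67.6 FPKM in Con, 820.6 ± 4.46 in Van and 847.8 ± 92.3 in VanLip, and ranked 47 of 26108 detected genes by mean FPKM. Its mean was 3.85 times that of Fcgr3 in Con, 3.69 times in Van and 4.57 times in VanLip. Among the IgG receptors Fcgr3 came first, with 201.0 ± 7.18 FPKM in Con, 222.5 ± 18.9 in Van and 185.3 ± 26.6 in VanLip. Fcgr4 had 131.7 ± 18.4, 176.6 ± 36.5 and 127.3 ± 21.7 FPKM, and Fcgr2b 81.4 ± 7.08, 100.3 ± 3.02 and 73.2 ± 11.2 FPKM, in the same order of groups. The lowest members were Fcgrt, with 54.3 ± 7.60, 59.1 ± 7.21 and 59.9 ± 5.07 FPKM, and Fcgr1, with 24.5 ± 0.699, 19.7 ± 0.835 and 23.0 ± 3.88 FPKM. The libraries of neighbours in this order did not overlap, except for Fcgr3 and Fcgr4 in Van and Fcgr2b and Fcgrt in VanLip.

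**Figure D1:**
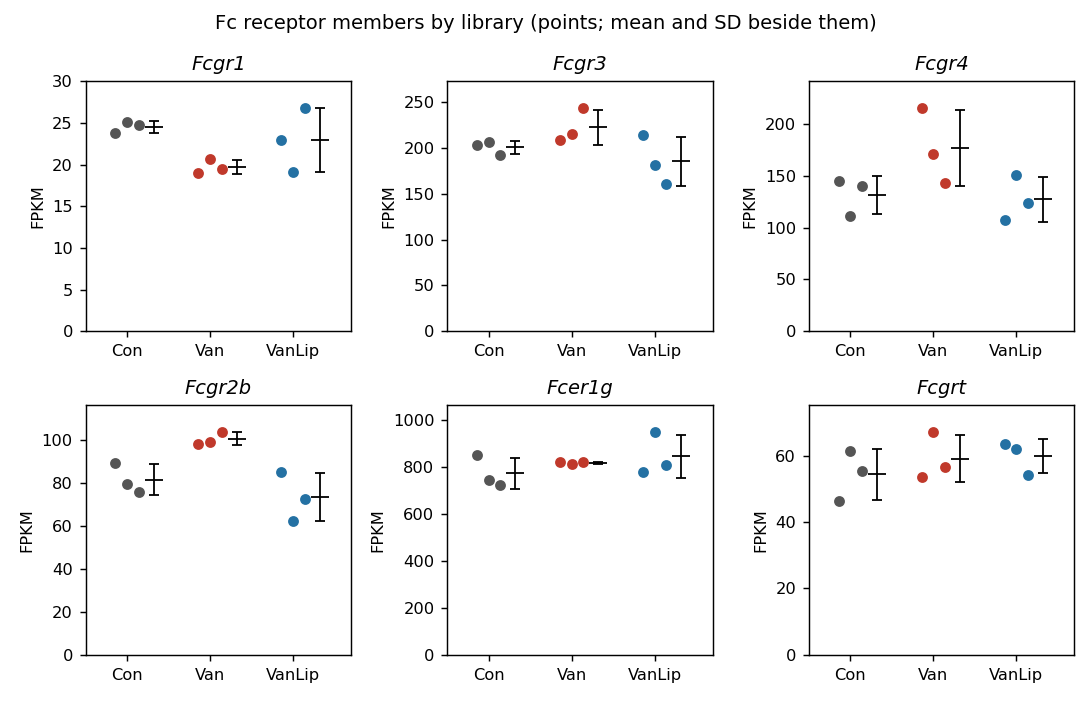
FPKM of each Fc receptor member on the vertical axis, from 0, by group, with 1 point per library and the mean with its SD (n = 3) beside the points. Fcgr1 is lower and Fcgr2b higher in all 3 Van libraries than in any Con library, while Fcer1g stays between 724.9 and 952.9 FPKM throughout.

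The Van against Con comparison asks whether monocyte Fc receptor transcripts differ after vancomycin and rest, and both groups had the same most frequent low count and similar depth. No member passed the threshold of an adjusted p of 0.05 in the Wald test of DESeq2 over all 9 libraries: 0 of 6 were called, where 4.33% of the 18526 genes with an adjusted p were. At an unadjusted p under 0.05 there were 3 of 6 (Fcgr1, Fcgr2b and Fcgr4), where 11.1% of all genes were, and edgeR called 0 of 6, where it called 0.72%. In 3 of 6 (Fcgr1, Fcgr2b and Fcgr3) the libraries of the groups did not overlap, where this held for 20.8% of genes. The log2 fold changes ran from -0.32 to 0.41, with a median of 0.12, beside -0.01 over all genes.

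Fcgr1, the high-affinity receptor, had normalized counts of 5949, 6251 and 5968 in Con and of 4732, 4967 and 4815 in Van. Every Van library was below every Con library, and the spread within each group was small. The log2 fold change was -0.32 (SE 0.12, 95% interval -0.55 to -0.10), a ratio of 0.799, at an adjusted p of 0.0922 with DESeq2.

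Fcgr2b, the inhibitory receptor, had 20178, 18192 and 15348 normalized counts in Con and 22117, 22932 and 22964 in Van. Here every Van library was above every Con library, and the 3 Van values lay close together. Its log2 fold change was 0.34 (SE 0.13, interval 0.09 to 0.59), a ratio of 1.27, at an adjusted p of 0.115 with DESeq2.

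Fcgr4 had 17601, 13401 and 16546 normalized counts in Con and 26033, 20089 and 17169 in Van. The lowest Van library, Van3, was below the highest Con library, so the groups overlapped, and Van1 was well above the others. The log2 fold change was 0.41 (SE 0.16, interval 0.09 to 0.73), at an adjusted p of 0.143 with DESeq2.

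For Fcgr3 the counts were 26442, 26543 and 24372 in Con against 26733, 26754 and 31242 in Van. The lowest Van library lay just above the highest Con library, and the log2 fold change was 0.13 (interval -0.09 to 0.35). Fcer1g, the shared signalling chain, differed by 0.07 (interval -0.11 to 0.26) and Fcgrt by 0.11 (interval -0.13 to 0.35).

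The calls in this comparison changed with the libraries fitted. Fitted on the Con and Van libraries alone, 3 members passed with DESeq2, where 8.66% of 11257 genes did: Fcgr1 at an adjusted p of 0.000106, Fcgr2b at 0.00714 and Fcgr4 at 0.045, with the same log2 fold changes. Fcgr1 also passed without VanLip2 (0.00195) or VanLip3 (0.0103), Fcgr2b without Con1 (log2 0.43, 0.0475), VanLip1 (0.0178) or VanLip2 (0.0425), and Fcgr4 without Van3 (log2 0.54, 0.0385), all adjusted p of DESeq2. The direction of these 3 was the same under all 20 alternatives.

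The VanLip against Van comparison asks whether transcripts differ when L654 follows vancomycin. In it 2 of 6 members were called by DESeq2, Fcgr2b and Fcgr4, where 9.85% of 18035 genes were. Both were lower in VanLip, where 5.27% of genes were called lower. Fcgr3 joined them at an unadjusted p under 0.05, where 15.5% of genes were, and edgeR called 1 of 6 (Fcgr2b), where it called 2.76% of genes. In 1 of 6 (Fcgr2b) the libraries did not overlap, where this held for 25.9% of genes. The median over the members was -0.13, beside 0.01 over all genes.

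Fcgr2b had 18667, 13440 and 15460 normalized counts in VanLip, against 22117 to 22964 in Van. All 3 VanLip libraries were below all 3 Van libraries. The gene fell, with a log2 fold change of -0.52 (SE 0.13, interval -0.77 to -0.27), a ratio of 0.699, at an adjusted p of 0.00153 with DESeq2. This held without any 1 library, at -0.65 to -0.41 and adjusted p of 6.78e-07 to 0.0182 with DESeq2, but the adjusted p was 0.113 with limma on log2(FPKM + 1) and 0.126 on log2(FPKM + 0.1).

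Fcgr4 had 12953, 17708 and 14662 normalized counts in VanLip, against 17169 to 26033 in Van. Only VanLip2 reached into the Van range. It fell with a log2 fold change of -0.48 (SE 0.16, interval -0.80 to -0.16), a ratio of 0.716, at an adjusted p of 0.0347 with DESeq2. The call was lost with edgeR (adjusted p of 0.146), with limma (0.136 to 0.268 over 3 fits), with the replicate block in DESeq2 (0.0603), and in DESeq2 without Van1 (log2 -0.30, 0.281), Van2 (-0.52, 0.0771), VanLip1 (-0.38, 0.142) or VanLip3 (-0.46, 0.0835).

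Fcgr3 had 27306, 22627 and 20267 normalized counts in VanLip, against 26733 to 31242 in Van. VanLip1 lay within the Van range and the other VanLip libraries below it, and the log2 fold change was -0.27 (interval -0.49 to -0.05) at an adjusted p of 0.115 with DESeq2. Without VanLip1 it was -0.40, at an adjusted p of 0.000999. Fcgr1 had 5685, 4615 and 6541 normalized counts in VanLip, with a log2 fold change of 0.21 (interval -0.01 to 0.44) and an adjusted p of 0.277 with DESeq2. The lowest, VanLip2, was below every Van library, and without it the value was 0.34 at an adjusted p of 0.00256. Fcer1g differed by 0.04 (interval -0.15 to 0.22) and Fcgrt by 0.01 (interval -0.22 to 0.25).

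In VanLip against Con no member was called. DESeq2 called 0 of 6, where it called 6.67% of 16565 genes, 0 of 6 were at an unadjusted p under 0.05, where 13% of genes were, and edgeR called 0 of 6, where it called 1.06%. The groups overlapped in all 6, where 23.5% of genes did not overlap. Log2 fold changes ran from -0.18 for Fcgr2b (interval -0.43 to 0.07) to 0.12 for Fcgrt (interval -0.11 to 0.36), with Fcgr3 at -0.14 (-0.36 to 0.08), Fcgr1 at -0.11 (-0.34 to 0.12), Fcgr4 at -0.07 (-0.39 to 0.25) and Fcer1g at 0.11 (-0.08 to 0.29). Van libraries enter 2 of the 3 comparisons and Con libraries 2, so the values of 1 member in different comparisons are not independent.

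**Figure D2:**
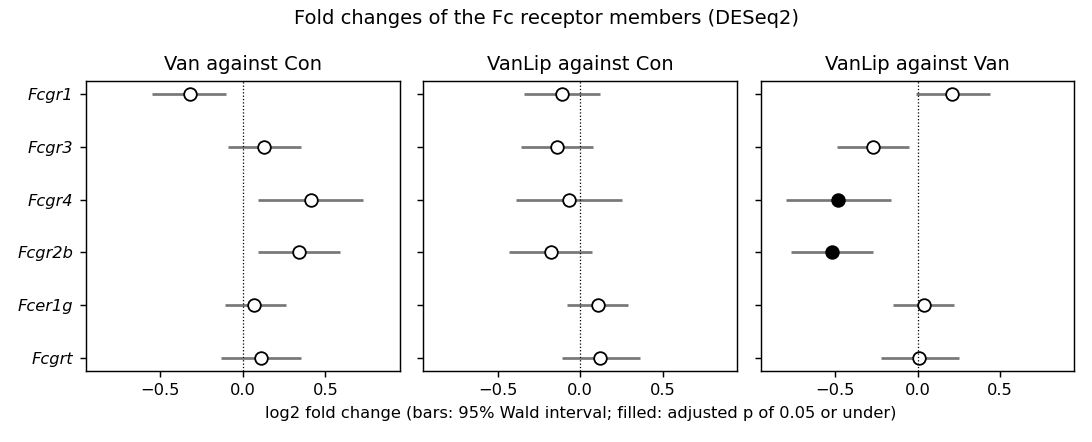
Log2 fold change of each member in the 3 comparisons, with 95% Wald intervals of DESeq2 as bars; filled points passed an adjusted p of 0.05. The filled points are Fcgr4 at -0.48 and Fcgr2b at -0.52 in VanLip against Van, and every interval of VanLip against Con spans 0.

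Markers of splenic red pulp macrophages, which also express Fc receptors, had fold changes of the same sign as Fcgr2b and Fcgr4, most of them not called. All 9 markers (Vcam1, Spic, Cd163, C1qa, C1qb, C1qc, Hmox1, Slc40a1, Axl) had positive log2 fold changes in Van against Con, with a median of 0.24, and all 9 had negative ones in VanLip against Van, with a median of -0.26. Of these, 1 was called in each comparison with DESeq2, Vcam1, at 0.46 (adjusted p of 0.0106) and -0.50 (adjusted p of 0.00176), and edgeR called 0. The summed level was 1530 to 1860 FPKM in Con, 1780 to 2410 in Van and 1470 to 1950 in VanLip, so these genes were abundant in every library. Of the other members, Fcgr3 had the same signs, at 0.13 in Van against Con and -0.27 in VanLip against Van. Fcgr1 had the opposite signs, at -0.32 and 0.21. Fcer1g (0.07 and 0.04) and Fcgrt (0.11 and 0.01) were positive in both. The part of red pulp macrophages in the result was not tested.

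Of 9 classical monocyte markers, 4 had a positive log2 fold change in Van against Con (median -0.01), 9 in VanLip against Con (median 0.45) and 8 in VanLip against Van (median 0.39). Among them, Ccr2 fell by 0.83 on the log2 scale in Van against Con (adjusted p of 0.00048 with DESeq2) and rose by 1.04 in VanLip against Van (7.38e-07), Ly6c2 rose by 0.39 in VanLip against Van (0.0262), Vcan rose by 1.54 in Van against Con (0.0123) and Hp by 0.63 in VanLip against Con (0.00298). Of 9 nonclassical markers 4, 5 and 4 were positive in the same order (medians -0.04, 0.06 and -0.03) and 1 was called, Eno3, higher in VanLip than in Van by 0.60 (0.0247). Of the 6 monocyte markers 1 was called, Cx3cr1, a receptor abundant on nonclassical monocytes, which rose by 0.43 in VanLip against Van (0.00264), the opposite sign to Fcgr4. The summed nonclassical level was 2810 to 3230 FPKM in Con, 2790 to 3730 in Van and 2700 to 3520 in VanLip, and that of the classical markers 1460 to 1770, 1220 to 2120 and 1760 to 3000. The part of subset makeup in the values of Fcgr4 was not tested.

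Markers of other splenic cells that carry Fc receptors were present at unlike levels. Ly6g, which defines neutrophils, was at 0 in all 9 libraries, and the 10 neutrophil markers summed to 22.2 to 26.2 FPKM in Con, 14.1 to 34.3 in Van and 21.0 to 37.4 in VanLip, a sum mostly of Mmp8 (mean of 19.4 FPKM). Of these 10, Retnlg was called lower in Van than in Con and Ngp lower in VanLip than in Con with DESeq2, with medians of the list at -0.37, -0.90 and -0.41 in Van against Con, VanLip against Con and VanLip against Van. The 6 NK cell markers summed to 0.5 to 0.819 FPKM in Con, 0.336 to 0.693 in Van and 0.246 to 0.671 in VanLip. Among the B cell markers, Ms4a1 averaged 0.262, Cd79a 1.10 and Cd79b 9.19 FPKM, and the heavy chain Ighm, of the B lineage, averaged 299.5 FPKM. Of 7 dendritic cell markers, 3 were called lower in Van than in Con (Clec9a, Xcr1 and Siglech) and 3 higher in VanLip than in Van (Clec9a, Batf3 and Siglech). In VanLip against Con 2 were called lower, Xcr1 and Cd209a. The list held both signs in each comparison: 1, 2 and 6 of 7 were positive in Van against Con, VanLip against Con and VanLip against Van. The 7 had a summed level of 49.9 to 64.5 FPKM in Con, 43.4 to 55.2 in Van and 39.3 to 59.7 in VanLip. Erythroid markers summed to 56.9 to 115 FPKM in Con, 189 to 430 in Van and 155 to 640 in VanLip, and 3 of the 5 measured were called higher in Van than in Con and 5 of 5 in VanLip than in Con.

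Ratios between members in 1 library do not depend on its depth, and these are given as a description. The summed activating receptors Fcgr1, Fcgr3 and Fcgr4 stood to inhibitory Fcgr2b as 4.17, 4.31 and 4.73 in Con, 4.51, 4.11 and 3.92 in Van and 4.07, 5.63 and 4.30 in VanLip, in FPKM. The groups overlapped, with means of 4.40 ± 0.292, 4.18 ± 0.304 and 4.67 ± 0.843 (SD, n = 3), and VanLip2 stood apart. The ratio of Fcgr1 to Fcgr2b did separate Van, at 0.194, 0.209 and 0.188, from Con at 0.266, 0.316 and 0.327 and from VanLip at 0.271, 0.306 and 0.371. The ratio of Fcgr4 to Fcgr1 was 6.10, 4.41 and 5.65 in Con, 11.3, 8.29 and 7.35 in Van and 4.69, 7.90 and 4.61 in VanLip, so that Van and Con did not overlap while VanLip2 lay within the Van range. Fcgr1 had the opposite sign to Fcgr2b and Fcgr4 in both comparisons with Van, so these separations restate the fold changes above. The ratios of Fcgr3 to Fcgr2b and of Fcgr4 to Fcgr2b overlapped between all groups. The shared gamma chain Fcer1g stood to the summed activating receptors as 2.29, 2.18 and 2.03 in Con, 1.86, 2.00 and 2.02 in Van and 2.26, 2.71 and 2.60 in VanLip, lowest in Van and with no overlap between Van and either other group.

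**Figure D3:**
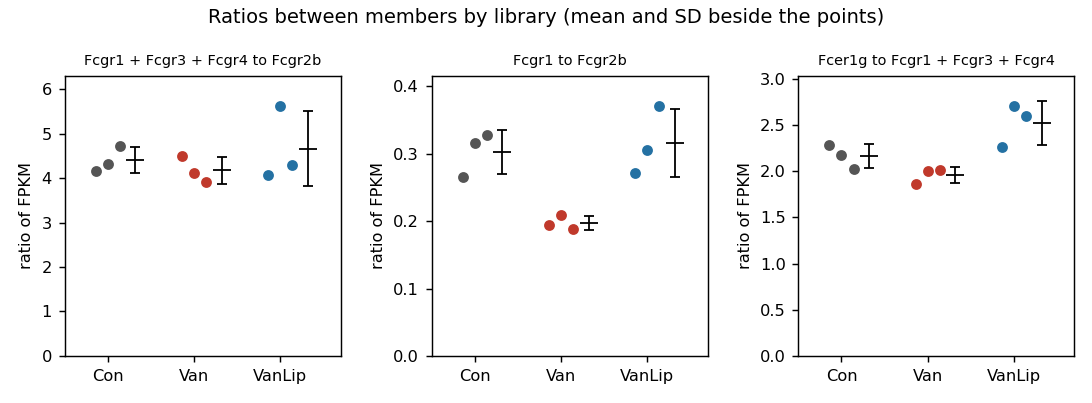
Ratios of FPKM on the vertical axis, from 0, with 1 point per library by group and the mean with its SD (n = 3) beside the points. The activating to inhibitory ratio overlaps between all groups, whereas Fcgr1 to Fcgr2b is 0.188 to 0.209 in Van and 0.266 or higher elsewhere.

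The wider pathway was described with 8 lists of 91 genes in all. In Van against Con 8 of the 85 genes with an adjusted p were called by DESeq2 (9.41%, beside 4.33% of all genes), 5 higher and 3 lower. In VanLip against Con 8 of 83 were called (9.64%, beside 6.67%), 3 higher and 5 lower. In VanLip against Van 17 of 84 were called (20.2%, beside 9.85%), 9 higher and 8 lower. Medians over these genes were -0.06, -0.01 and 0.01, close to the -0.01, 0.01 and 0.01 of all genes. Of the calls, 4 of 8, 2 of 8 and 8 of 17 held with each library left out in turn, and edgeR made 2, 3 and 7 of them.

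Among the ligands, 8 immunoglobulin heavy chain genes were measured, whose RNA comes from B lineage cells. Ighm, the heavy chain of IgM, had 48347, 55518 and 55010 normalized counts in Con, 39319, 36436 and 35259 in Van and 36410, 42092 and 44944 in VanLip. It fell by 0.52 on the log2 scale in Van against Con (adjusted p of 1.69e-05 with DESeq2) and by 0.36 in VanLip against Con (0.00528, lost without Con2 or Con3, where the highest was 0.0686). Ighd, of IgD, fell by 1.49 in Van against Con (0.00343, and 0.0508 without Van2), and Igha, of IgA, rose by 1.75 in VanLip against Con (0.0029, and 0.0532 without Con1). The IgG chains that the Fcgr members bind, Ighg1, Ighg2b, Ighg2c and Ighg3, were not called in any comparison by the reported DESeq2 fit, with means over all libraries of 2.87, 12.1, 20.3 and 6.47 FPKM. Alternatives could differ, as Ighg2b was called by DESeq2 without Con3 in Van against Con and in VanLip against Con. Of 7 B cell markers, 0 had a positive log2 fold change in Van against Con, with a median of -0.53, and 1 was called, Blk, which fell by 1.36 (adjusted p of 0.0181 with DESeq2). Of 5 plasma cell markers, Sdc1 fell by 0.71 in that comparison (0.0247) and rose by 0.70 in VanLip against Van (0.0144), and Prdm1 fell by 0.92 in VanLip against Con (6.06e-06) and in VanLip against Van (3.21e-06). The 5 summed to 175 to 188 FPKM in Con, 169 to 186 in Van and 163 to 178 in VanLip, a sum mostly of Xbp1 (mean of 125 FPKM over all libraries), and the part of B lineage cells in these values was not tested.

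Of 13 other immunoglobulin-binding receptors, none was called in any comparison by the reported DESeq2 fit, and the list's medians were -0.30, -0.53 and -0.10 over the 8, 7 and 8 genes with an adjusted p. Of the 13, 1, 2 and 1 had p under 0.05 before adjustment, and edgeR called 0 in each comparison. Other DESeq2 fits did call some. Examples are Pigr with the replicate block and Trim21 without VanLip3 in Van against Con. In VanLip against Con they are Ms4a2 with only these groups fitted and Fcrl1 without VanLip3. The highest of the 13 were Fcrl1, at 8.03 FPKM, and Trim21, a cytosolic antibody receptor, at 7.07. Fcer1a and Ms4a2, chains of the IgE receptor that also uses the gamma chain, averaged 0.00807 and 0.0158 FPKM. B2m, the light chain of FcRn, averaged 2816 FPKM, and its log2 fold changes were -0.06 (SE 0.10), -0.07 (SE 0.10) and 0.00 (SE 0.10) in Van against Con, VanLip against Con and VanLip against Van. The ratio of B2m to Fcgrt averaged 54.1 ± 11.7 in Con, 47.6 ± 8.20 in Van and 47.1 ± 9.22 in VanLip (3 mice each), with overlap between all groups.

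The list of receptors that signal through the gamma chain, and of related adaptors, held 9 genes, of which 3 were called higher in Van than in Con, and the same 3 lower in VanLip than in Van: Clec4e (Mincle, a receptor for glycolipids), Clec4d and Clec4n (Dectin-2, a receptor for fungal mannans). Clec4e had 11621, 11420 and 13997 normalized counts in Con, 22636, 18029 and 16920 in Van and 10493, 9196 and 6159 in VanLip. The 3 groups did not overlap: it rose by 0.64 in Van against Con (adjusted p of 0.0123 with DESeq2), fell by 1.16 in VanLip against Van (6.64e-09) and fell by 0.52 in VanLip against Con (0.0489). Clec4d had 940, 978 and 898 in Con, 2049, 2228 and 2238 in Van and 1289, 616 and 659 in VanLip. It was higher by 1.21 in Van against Con (adjusted p of 4.26e-05 with DESeq2) and lower by 1.35 in VanLip against Van (4.85e-07).

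Clec4n had 5718, 6472 and 7050 normalized counts in Con, 8096, 9779 and 8963 in Van and 5333, 6967 and 7886 in VanLip. Every Van library was above every other library, with a rise of 0.48 against Con (adjusted p of 0.0226 with DESeq2) and a fall of 0.41 in VanLip against Van (0.0402). Both calls of Clec4d, and that of Clec4e in VanLip against Van, held with each library left out. The Clec4e call in Van against Con was lost without Con1, Con2 or Van1 (highest adjusted p of 0.0902), and that in VanLip against Con without Con1, Con2, Con3, Van2, Van3, VanLip2 or VanLip3 (0.261). Those of Clec4n were lost without Con1, Con2, Van2 or Van3 (0.189) in Van against Con, and without Con2, Van2, Van3, VanLip1 or VanLip2 (0.225) in VanLip against Van. The adaptor Tyrobp (DAP12), the most abundant of the list at 1241 FPKM, differed by -0.04 (SE 0.07) in Van against Con and 0.08 (SE 0.07) in VanLip against Van.

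Below the receptors, 17 genes of activating signalling were measured. Syk, the kinase that binds the phosphorylated ITAM, had 53661, 58797 and 55662 normalized counts in Con, 77740, 72632 and 68861 in Van and 58038, 45011 and 51039 in VanLip. All Van libraries were above the other 6; it rose by 0.38 in Van against Con (adjusted p of 0.0052 with DESeq2, and 0.0589 without Con1) and fell by 0.51 in VanLip against Van (1.2e-05). Pik3r1, a regulatory subunit of PI 3-kinase, had 7794, 7724 and 8294 in Con, 10564, 9891 and 9950 in Van and 6776, 7260 and 8011 in VanLip, and likewise rose by 0.35 (0.0009) and fell by 0.46 (4.45e-07). In VanLip against Van, Lyn, a Src-family kinase, fell by 0.17 (0.0137) and the adaptor Lat2 rose by 0.39 (0.0144). The Lyn call was lost without Van1, VanLip1, VanLip2 or VanLip3 (highest adjusted p of 0.122) and the Lat2 call without Van1, Van2, VanLip1 or VanLip2 (0.12).

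Of 11 genes of inhibitory signalling, the phosphatase genes Ptpn6 and Ptpn11 rose in VanLip. Ptpn6 (SHP-1) had 48520, 48482 and 51716 normalized counts in Con, 44725, 44839 and 44847 in Van and 55267, 63648 and 63329 in VanLip. It rose by 0.44 in VanLip against Van (adjusted p of 6.61e-08 with DESeq2) and by 0.29 in VanLip against Con (0.00175), with no overlap of VanLip and the other groups. Ptpn11 (SHP-2) had 14314, 15984 and 15895 in VanLip against 12100, 11367 and 10373 in Van, a rise of 0.45 (3.33e-06). Cbl, a ubiquitin ligase, fell by 0.27 in VanLip against Con (0.0118) and 0.25 in VanLip against Van (0.0199), and the adaptor Dok1 rose by 0.36 in VanLip against Con (0.0498). The Cbl calls were lost without Con1 or VanLip2 (highest adjusted p of 0.127) and without Van1, Van2, Van3, VanLip2 or VanLip3 (0.115), and that of Dok1 without Con1, Con2, Van1, Van2, Van3, VanLip2 or VanLip3 (0.285). Inpp5d (SHIP1), which Fcgr2b recruits, differed by -0.04 (SE 0.06), -0.12 (SE 0.06) and -0.08 (SE 0.06) in Van against Con, VanLip against Con and VanLip against Van.

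**Figure D4:**
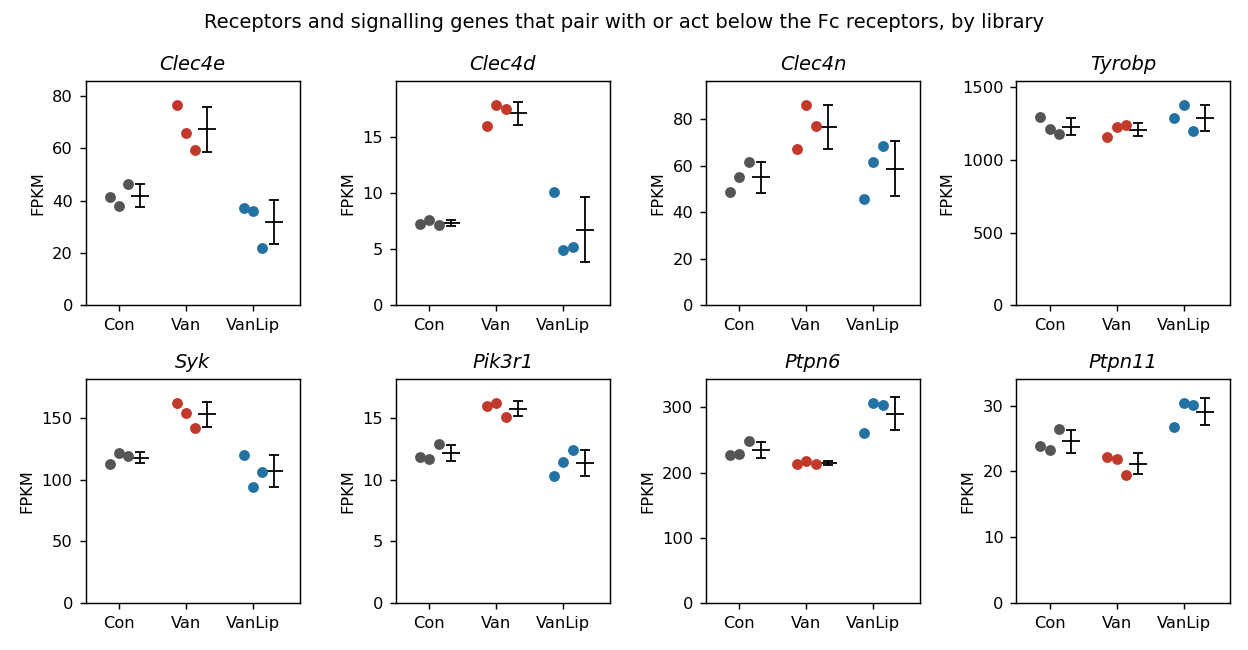
FPKM by library (points) and mean with SD (n = 3) for 8 genes on axes from 0. They are receptors that signal through the gamma chain, the related adaptor Tyrobp, and signalling genes that act below the receptors. Clec4e, Clec4d, Syk and Pik3r1 are highest in the Van libraries, Clec4n has its highest mean in Van but is at 68.6 FPKM in VanLip3 and 67.3 in Van1, Ptpn6 and Ptpn11 are highest in the VanLip libraries, and Tyrobp overlaps between the groups.

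Of the 20 genes of phagocytosis and of the oxidase, DESeq2 called 1, 0 and 5 in Van against Con, VanLip against Con and VanLip against Van, beside 4.33%, 6.67% and 9.85% of all those given an adjusted p. At p under 0.05 before adjustment there were 8, 3 and 11 of 20, beside 11.1%, 13% and 15.5%, and edgeR called 0 in each comparison. The gene called in Van against Con was Dock2, an activator of Rac, which fell by 0.28 (adjusted p of 0.000471 with DESeq2). In VanLip against Van 5 were called higher: Arpc4 by 0.20 (0.000899), Arpc3 by 0.17 (0.0221), Arpc2 by 0.15 (0.0419) and Actr3 by 0.16 (0.0405), all subunits of the Arp2/3 complex that branches actin, and Dock2 by 0.17 (0.0443). Of the Arp2/3 calls only that of Arpc4 held with each library left out; that of Arpc2 was lost in every such fit but the one without VanLip3 (highest adjusted p of 0.243). The Arpc3 call was kept only without Con1 or VanLip3 (0.183), that of Actr3 only without Van3 or VanLip2 (0.231), and that of Dock2 in VanLip against Van only without Con2 or VanLip2 (0.249). A positive sign was seen in 18 of 20 genes of the list in VanLip against Van, with a median of 0.14, and in 4 of 20 in Van against Con, with a median of -0.10.

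The 12 genes of the interferon gamma pathway were followed because Fcgr1 is one of the genes the cytokine induces. In Van against Con 0 were called by DESeq2, with 0 at an unadjusted p under 0.05 and 0 by edgeR, and 1 of 12 had a positive sign, with a median of -0.32. In VanLip against Con Ciita, the activator of MHC class II genes, fell by 1.06 (adjusted p of 9.84e-06 with DESeq2) and Igtp by 0.62 (0.033, lost without Con1, VanLip1 or VanLip2). In VanLip against Van Irf8, a factor of monocyte development, rose by 0.42 (0.000604) and Ciita fell by 0.71 (0.00676, lost without Van1 or VanLip1). The median of the list in VanLip against Con was -0.52.

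Around the chromosome 1 cluster, within 100000 bases to either side, 12 other genes had a mean normalized count of at least 50. Of these 1 was called in Van against Con, Usp21 (0.26, adjusted p of 0.0453 with DESeq2), and 2 in each VanLip comparison, Ufc1 (0.26 against Con and 0.25 against Van) and the pseudogene Rpl27-ps1 (1.10 and 1.42). The neighbours Fcrla and Fcrlb, receptor-like genes of B cells, had mean counts of 58.2 and 27.9 and were not called.

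Over the 9 libraries the members themselves varied in unlike ways. The highest Pearson correlation of log2 normalized counts between members was 0.80, of Fcgr2b with Fcgr3, the pair that shares the 129-base run printed above, and the lowest -0.68, of Fcgr1 with Fcgr4. Among 13502 other genes with a mean count of at least 50, the most like Fcgr1 were Pde7b (r = 0.982), Prkacb (0.979) and Ifi203 (0.976), and the most like Fcgr4 were Nfkbiz (0.976), Sun2 (0.954) and Rnf19a (0.947). For Fcgr2b they were Nus1 (0.964), Trrap (0.959) and Dnajc1 (0.951), and for Fcgr3 Chil4 (0.971) and Cd93 (0.952). Fcer1g was most like 0610011F06Rik (0.940), Coq2 (0.934) and Zfp688 (0.917), and Fcgrt was most like Sumf2 (0.967), Cenpv (0.945) and Coq7 (0.913). These points share libraries, depth and group, and the best of many genes is high by selection, so the values are a description.

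**Figure D5:**
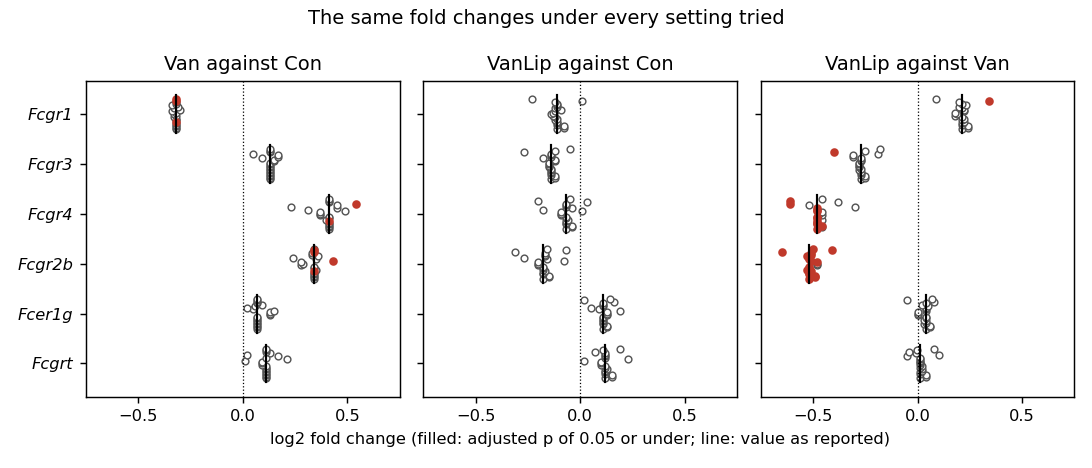
Log2 fold change of each member under the reported fit (vertical line) and 20 alternatives (points), filled where the adjusted p was 0.05 or under. Fcgr2b in VanLip against Van stays between -0.65 and -0.41 and is filled in most settings, while Fcgr4 there is filled in some and open in others.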

How the data were processed

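Polyadenylated RNA of splenic monocytes from 9 mice was sequenced with a stranded library kit, with groups and replicates as the titles give them. Per the labels and the study's methods, the authors aligned paired reads to GRCm38 with HISAT2 2.2.1 and SAMtools 1.9 and estimated expression with StringTie 2.1.3. The authors deposited FPKM per gene, and expected counts per gene obtained from StringTie through tximport, which are not normalized and need not be whole. The annotation release was not stated; GENCODE M21 gave coordinates, and 99.1% of the 26108 detected genes matched it.

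Expected counts were rounded and tested with the two-sided Wald test of DESeq2 1.42.0 (R 4.3.3), with all 9 libraries and group as the only term and adjustment by Benjamini-Hochberg over the genes left by the independent filtering of DESeq2 (16565 to 18526 of 26108). Calls needed an adjusted p of at most 0.05, and intervals are the estimate ± 1.96 SE. Alternatives were edgeR 4.0.16, limma 3.58.1 on log2(FPKM + 1) or log2(FPKM + 0.1), other size factors and filters, a replicate block, corrections for the inferred read length and for depth, and each library left out.

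The 6 members, the pathway and marker lists and the tests were chosen with earlier results of these data known. Members were always named; from pathway lists, called genes and otherwise the most abundant 2; and for each member the 3 genes with the highest correlation. A few genes that this rule names are not reported here. Deviations from the group means correlated between same-numbered mice of different groups at -0.06 to 0.12, so replicate numbers were not taken as pairs.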

Additional observations from a re-analysis of the deposited data

How the results depend on the processing

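Of 360 values (the 6 members in 3 comparisons under 20 alternatives), 330 kept their direction and their side of the threshold. Most of these were values that were not called in the reported fit and stayed so, since only 2 members were called, both in VanLip against Van. Of the rest, 11 lost a call, all of Fcgr2b or Fcgr4 in that comparison, 11 gained a call and 8 changed sign. Counts of genes called in Van against Con, VanLip against Con and VanLip against Van were 803, 1105 and 1777, against 188, 277 and 720 with edgeR, 92, 237 and 688 when limma was run on log2(FPKM + 1), 17, 168 and 516 where 0.1 was added, and 90, 339 and 829 after dropping genes under a mean FPKM of 1; converting counts to fragments gave 853 in VanLip against Con, and conversion with VanLip thinned to the depth of the others 714. TMM sizes split the VanLip calls into 657 higher and 500 lower against Con (494 and 611 as reported) and 1013 and 809 against Van (826 and 951). The replicate block split them into 623 and 523 against Con and 862 and 782 against Van, and edgeR split the Van against Con calls into 122 higher and 66 lower (421 and 382 as reported), the VanLip against Con calls into 152 and 125 and the VanLip against Van calls into 388 and 332; limma split the first into 70 and 22, 11 and 6, and 63 and 27. The cause was not tested.

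Members called in Van against Con were 0, but 3 with only the 2 groups compared (Fcgr1 -0.32, Fcgr2b 0.34, Fcgr4 0.41). In VanLip against Van they were 2, but 1 with edgeR, the replicate block or limma on genes of a mean FPKM of at least 1, and 0 with limma on either pseudocount. There Fcgr4 lost its call at -0.46 with edgeR, the replicate block (adjusted p of 0.0603 in DESeq2) and limma, and at -0.47 with limma at 0.1, and Fcgr2b at -0.48 with limma at either pseudocount; the block changed no other call of a member. Calls in the wider lists were 8, 8 and 17, against 2, 3 and 7 with edgeR, 0, 0 and 6 with limma, 0, 0 and 5 at 0.1, 0, 2 and 6 after dropping genes under that mean FPKM, and 5 in VanLip against Con with only those groups.

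Leaving out 1 library at a time moved the counts of genes called to 425 to 913, 606 to 1272 and 1139 to 1666, of members to 0 to 2, 0 to 0 and 1 to 3, and of the wider lists to 5 to 10, 3 to 12 and 10 to 17. The count of genes moved by over 1.5 times without Van2 (425), Con3 (433), Van3 (487) or Con2 (501) in Van against Con, without Con1 (606), Con2 (690) or VanLip2 (692) in VanLip against Con, and without Van2 (1139) or Van1 (1144) in VanLip against Van. That of the wider lists did so without Con1 (5) in the first, Con1 (3), VanLip2 (4) or Con2 (5) in the second, and VanLip1 (10), Van1 (11) or Van2 (11) in the last. Log2 fold changes in Van against Con then ran from -0.34 to -0.30 for Fcgr1, 0.24 to 0.43 for Fcgr2b and 0.23 to 0.54 for Fcgr4. In VanLip against Van they ran from 0.09 to 0.34 for Fcgr1, -0.65 to -0.41 for Fcgr2b, -0.40 to -0.18 for Fcgr3 and -0.61 to -0.30 for Fcgr4. Signs turned only in values near 0 that no test called: in VanLip against Con, Fcgr1 at 0.01 without VanLip2 (range -0.23 to 0.01) and Fcgr4 at 0.01 without Con1 and 0.03 without VanLip1 (range -0.20 to 0.03); in VanLip against Van, Fcer1g at -0.05 without VanLip2 (range -0.05 to 0.08) and Fcgrt at -0.05 without Van1, -0.01 without Van3, -0.04 without VanLip1 and -0.0029 without VanLip2 (range -0.05 to 0.10). Where a group was left with 2 mice, its spread was assumed to be like that of the others. With 3 mice a group, the intervals given beside each fold change show the precision of these values.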
